A study of Mus musculus with 7 samples.

Results

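The 54 genes described here copy DNA, divide the cell or decide whether it divides. They comprise 16 genes of S phase and DNA replication, 28 genes of G2 and mitosis, and 10 genes that control passage through G1, among them the inhibitors of cyclin-dependent kinases (CDKs). They were taken by gene symbol from the deposited table of 28666 genes, and all 54 were found there. Marrow of female C57BL/6 mice aged 6 to 8 weeks was cultured for 7 days with GM-CSF (20 ng/ml) and IL-4 (10 ng/ml) into bone marrow-derived dendritic cells (BMDCs), which were then held in Transwell co-culture with MC38, a mouse colon adenocarcinoma line. Flow sorting separated them into immature BMDCs (3 libraries) and mature BMDCs (4 libraries), and messenger RNA of each library was sequenced. The text of the study places the sorted and sequenced cells in co-cultures treated with the glutamine antagonist DON for 24 h, its legend names DMSO or DON at 5 µM, and the labels give no treatment for a library. Glutamine was 0.6 mM in the DMSO co-cultures and 2 mM in those with DON. The markers of the sort were not given in the sources used here. The study's methods speak in general of independent biological experiments, and the labels tie no library to a mouse or culture of its own, so p-values measure the spread between these libraries, which may be partly technical.

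The cell cycle runs on successive waves of transcription. E2F factors, released from the retinoblastoma protein when D-type and E-type cyclins activate their kinases, switch on the genes of S phase. Later a complex of B-Myb and FOXM1 switches on the genes of G2 and mitosis through an element called CHR, which the DREAM complex occupies in resting cells to keep the same genes silent. CDK inhibitors such as p21 and p27 hold a cell in G1, and dendritic cells are generally held to stop dividing as they mature.

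The promoters of the groups differed in these elements. RefSeq promoter windows of mouse build GRCm38.p6, each 250 bases before and 50 bases after a start site, were found for 43 of the 54 genes (47 windows). Both strands were searched for the CHR element (TTTGAA or TTCGAA), the CCAAT box bound by NF-Y (CCAAT), and the E2F element (TTTGGCGC, TTTCGCGC, TTTCCCGC or TTTGCCGC). Stretches upstream of the start site are printed for 4 mitosis genes and 2 replication genes. They are examples that hold matches and not the typical layout of a group. The windows of the S phase genes Pcna, Rrm1 and Rrm2 held a CCAAT box but no E2F match. Capitals mark every match on either strand, and a longer run of capitals in Mcm5 and Mcm6 is a pair of overlapping E2F matches on opposite strands. The stretches lie at chr7:135716465-135716574 (Mki67, minus strand), chr11:99024201-99024384 (Top2a, minus), chr10:69352917-69353047 (Cdk1, minus), chr9:70421564-70421649 (Ccnb2, minus), chr8:75109349-75109497 (Mcm5, plus) and chr1:128359710-128359823 (Mcm6, minus).
Mki67: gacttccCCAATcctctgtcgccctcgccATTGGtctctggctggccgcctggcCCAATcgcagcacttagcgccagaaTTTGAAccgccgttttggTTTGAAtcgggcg
Top2a: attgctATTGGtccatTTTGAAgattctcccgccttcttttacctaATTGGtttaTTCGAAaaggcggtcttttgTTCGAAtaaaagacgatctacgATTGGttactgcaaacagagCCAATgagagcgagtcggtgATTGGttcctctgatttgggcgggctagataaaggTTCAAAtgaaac
Cdk1: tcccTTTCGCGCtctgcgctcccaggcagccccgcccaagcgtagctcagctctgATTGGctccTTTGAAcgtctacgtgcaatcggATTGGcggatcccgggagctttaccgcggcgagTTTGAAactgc
Ccnb2: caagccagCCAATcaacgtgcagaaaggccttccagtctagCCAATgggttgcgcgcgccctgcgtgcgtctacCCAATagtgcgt
Mcm5: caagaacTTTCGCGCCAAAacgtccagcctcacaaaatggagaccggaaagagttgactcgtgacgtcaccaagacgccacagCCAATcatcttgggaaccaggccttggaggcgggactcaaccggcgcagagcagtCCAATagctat
Mcm6: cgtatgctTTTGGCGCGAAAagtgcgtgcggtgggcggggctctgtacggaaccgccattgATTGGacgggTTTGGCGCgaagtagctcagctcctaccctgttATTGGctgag

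The sequence of Mki67 holds 3 CCAAT boxes and 2 CHR elements, and that of Top2a holds 4 CHR elements. Of the printed sequences of mitosis genes, only that of Cdk1 also holds an E2F element. Ccnb2 has 3 regularly placed CCAAT boxes in the printed stretch, while its CHR elements start 167 bases before and 4 bases after the start site and so lie outside it. The RefSeq start of Cdk1 lies 26 bases inside the gene as deposited, so the end of its stretch belongs to that gene model. Among mitosis genes, 17 of 22 windows (77.3%) held a CHR element, against 3 of 15 (20%) for S phase genes, 0 of 10 for G1 genes and 19.2% of all 32851 RefSeq windows. E2F elements were distributed the other way, in 6 of 15 S phase windows (40.0%) and 1 of 22 mitosis windows (4.55%), with 2.26% in all windows. A CCAAT box was present in 86.4% of mitosis windows, 66.7% of S phase windows, 40.0% of G1 windows and 37.4% of all windows. CHR and CCAAT occurred together in 17 mitosis windows (77.3%) against 7.52% of all windows. A match describes letters in a window and is neither a bound site nor a cause of any level reported here.

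**Figure D1:**
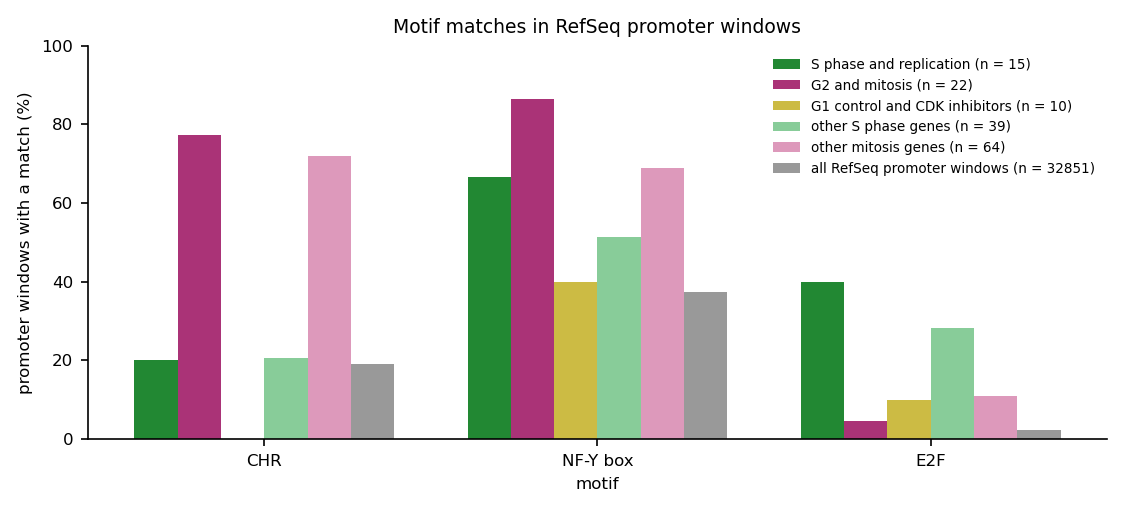
Percent of RefSeq promoter windows with at least 1 match to the CHR element, the NF-Y (CCAAT) box or the E2F element on either strand, for the 3 gene groups, 2 lists of further genes and all 32851 windows. CHR stands out in both mitosis lists (77.3% and 71.9%) and E2F in both S phase lists (40.0% and 28.2%).

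Total counts were 54846746 to 67973086 per library, and the lowest count of any of the 54 genes in any library was 32. All 54 passed edgeR's filter on low counts, as did 17461 genes in all. Mature replicate 1 stood apart from the other mature libraries, with a score of 36 on the first principal component (62.6% of the variance) against 78.7 to 86.1. Mature replicate 3 stood apart on the second component (63.2, against -78.6 for mature replicate 1 and -6.39 and -0.0869 for the other mature libraries). Its FPKM summed to 381706.64, against 327714.31 to 337706.41 in the other libraries. It was the lowest mature library for 13 of 28 mitosis genes and 7 of 16 S phase genes, and the share over all genes was not computed. Without mature replicate 3, 25 of 28 mitosis and 7 of 16 S phase genes fell, with median log2 fold changes of -1.70 and -0.77. Over all genes in that fit, 1759 of 16954 fell and the median was 0.042. Markers of heart muscle split the mature libraries too. All 9 of 9 rose, and their summed level was 4.77 to 5.99 CPM (counts scaled to a common library size) in immature libraries. It was 27.8 CPM in mature replicate 1 and 668 to 801 CPM in mature replicates 2 to 4. In mature replicate 1 the sum was mostly Tnni3, at 24 CPM, and the other markers were at 0 to 0.849 CPM. The part of the heart muscle markers in the results was not tested. Group medians are therefore also given with mature replicate 1 as the only mature library. Of the labelled cell type, the dendritic cell markers Ccr7, Cd83, Zbtb46 and Flt3 rose and 0 of 9 fell.

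The genes of division were lower in mature than in immature BMDCs. In edgeR's quasi-likelihood test over all 17461 genes, 34 of the 54 fell by the criteria of the study, a log2 fold change of at least 1 in size and a Benjamini-Hochberg adjusted p under 0.05. Only 1 rose, Ccnd2, and 19 met neither direction. Over all genes tested, 9.95% fell, 13.2% rose and 23.1% passed in either direction. The median log2 fold change of the 54 genes was -1.35, against 0.055 for all genes tested. In 44 of the 54 every mature library lay below every immature one (26.7% of all genes tested) and in 8 every mature library lay above (25.4%), where 52.1% of all genes had groups that did not overlap in either direction. Without the fold criterion, 51 had an adjusted p under 0.05, where 46.1% of all genes did. In bulk RNA a smaller share of dividing cells and less of these transcripts per dividing cell cannot be told apart.

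**Figure D2:**
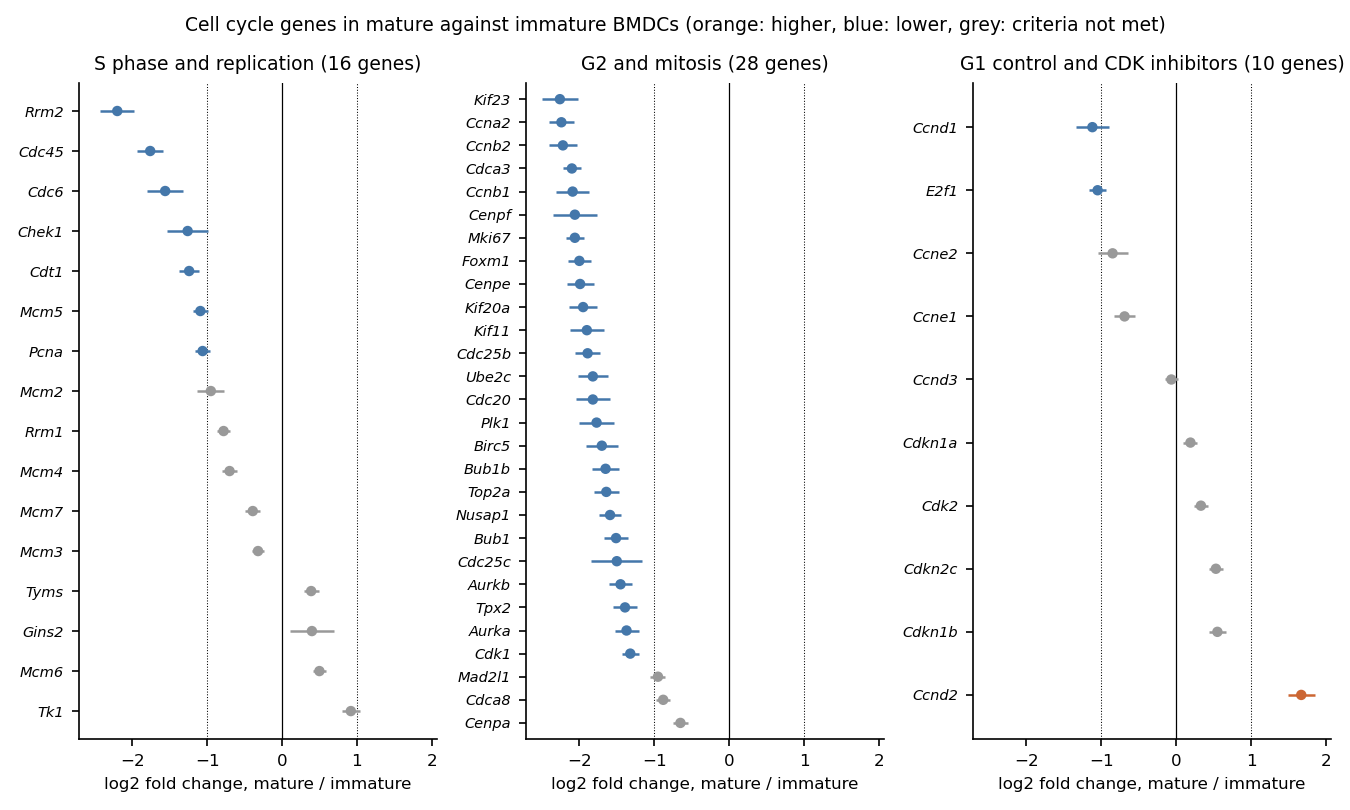
Log2 fold change of mature over immature BMDCs for each of the 54 genes, by group; the bar is the standard error of the edgeR estimate, and dotted lines mark the fold criterion. All 28 mitosis genes lie left of 0, S phase genes span -2.20 to 0.92, and G1 genes lie on both sides.

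The genes of G2 and mitosis fell together. Of 28, 25 fell and 0 rose, with log2 fold changes from -2.26 to -1.32 among those that fell and a median of -1.79 over all 28. No log2 fold change of the 28 was above 0, and 0 rose by DESeq2 as well. Each of the 28 had an adjusted p under 0.05 and every mature library below every immature library. Summed over the 28 genes, the level reached 871, 946 and 917 CPM in immature libraries and 367, 291, 266 and 264 CPM in the mature ones. That is 3.07 times lower on average.

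Mki67 encodes the Ki-67 protein that coats mitotic chromosomes and is the standard stain for proliferation (chr7:135689784-135716361, minus strand, GRCm38). In immature libraries it reached 94.0, 92.7 and 90.0 CPM, and in mature replicates 1 to 4 only 26.2, 23.0, 18 and 20.9 CPM. The groups were far apart, with 4.18 times less in mature cells (log2 fold change -2.06 ± 0.12 SE, edgeR adjusted p = 3.06e-06). Top2a, the topoisomerase that untangles sister chromatids (chr11:98992943-99024189), was at 118, 123 and 118 CPM in immature libraries. In mature libraries it was at 50.2, 40.5, 30.9 and 31.6 CPM, with mature replicate 1 the highest (log2 fold change -1.64 ± 0.17 SE, edgeR adjusted p = 6.12e-05).

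The engine of mitosis is Cdk1 with its A-type and B-type cyclins, and all of its parts fell. Cdk1 itself (chr10:69335146-69352938) was at 22.8, 25.9 and 27.1 CPM in immature libraries and at 11.5, 9.40, 10 and 9.56 CPM in mature ones. The groups did not overlap (log2 fold change -1.32 ± 0.11 SE, edgeR adjusted p = 2.34e-05). Ccnb1, the main mitotic cyclin, was at 27.3, 31.4 and 32.3 CPM in immature and 10.5, 6.73, 5.54 and 5.77 CPM in mature libraries. Mature replicate 1 was again the highest of its group, and the fall was 4.24-fold (edgeR adjusted p = 7.98e-05). Ccnb2, a second B-type cyclin (chr9:70407692-70421547), was at 19.1, 22.2 and 23.1 CPM against 5.99, 5.02, 3.88 and 3.58 CPM. It fell 4.64-fold with no overlap (edgeR adjusted p = 2.27e-05). Ccna2, cyclin A2, which serves both S phase and entry to mitosis, was at 38.5, 42.1 and 40.1 CPM against 11.2, 7.66, 6.47 and 8.80 CPM, a 4.71-fold fall (edgeR adjusted p = 1.21e-05). Of the phosphatases that switch Cdk1 on, Cdc25b (log2 fold change -1.89) and Cdc25c (-1.50) fell as well. Cdc25c was at only 2.1 to 3.1 CPM in immature cells. Cdc25a, from a list of further G1 genes and named with its value known, was at -0.57, short of the fold criterion.

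Foxm1, the factor that drives the mitotic wave (chr6:128362967-128376146), was at 18.5, 19.5 and 17.4 CPM in immature libraries and 5.65, 4.72, 4.09 and 4.00 CPM in mature ones. The 2 ranges were well separated, at 3.99 times less in mature cells (log2 fold change -2 ± 0.15 SE, edgeR adjusted p = 1e-05). Cdca3, a trigger of mitotic entry, had the smallest p of the 28 genes. Its level was 19.0, 21 and 20.1 CPM in immature and 4.97, 4.10, 4.67 and 4.88 CPM in mature libraries, a tight and 4.30-fold separation (edgeR adjusted p = 1.83e-06).

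The remaining mitosis genes followed by function. Kinases of spindle assembly and division fell with log2 fold changes of -1.77 (Plk1), -1.37 (Aurka) and -1.45 (Aurkb), and the Aurkb partner Birc5, survivin, with -1.70. The spindle checkpoint kinases Bub1 (-1.51) and Bub1b (-1.65) fell, while the checkpoint protein Mad2l1 was at -0.95, short of the fold criterion. The motor proteins fell, namely Kif23, which builds the midbody (-2.26, the lowest of the 28), Kif20a (-1.95) and Kif11 (-1.90), as did the spindle proteins Tpx2 (-1.39) and Nusap1 (-1.59). At the kinetochore Cenpe (-1.99) and Cenpf (-2.06) fell, whereas Cenpa, the histone variant that marks centromeres, was at -0.65. Cdc20 (-1.82) and Ube2c (-1.82), which drive the anaphase-promoting complex, fell. Cdca8, borealin, was at -0.88. The 3 genes short of the fold criterion, Cdca8, Mad2l1 and Cenpa, still had edgeR adjusted p-values of 7.34e-05, 8.29e-05 and 8.07e-04.

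S phase genes were divided. Of 16, 7 fell and 0 rose, with a median log2 fold change of -0.86 and a range from -2.20 to 0.92. By adjusted p alone, 12 were lower and 3 higher in mature cells, where 22.9% and 23.2% of all genes were. An unadjusted p under 0.05 gave the same 3 higher genes (Mcm6, Tyms and Tk1), and by DESeq2 0 rose past the criteria. Their summed level was 681, 715 and 709 CPM in immature libraries and 540, 463, 496 and 486 CPM in mature ones, 1.41 times lower on average. The difference between the S phase and mitosis groups is described by these counts and medians and was not tested.

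**Figure D3:**
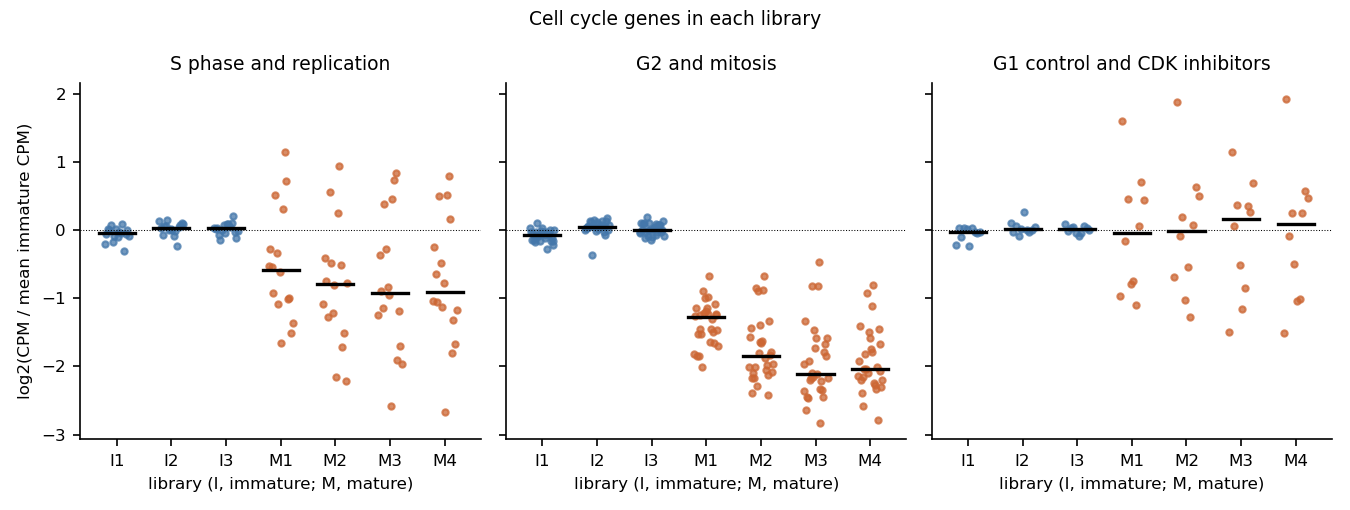
Each point is a gene in 1 library (I, immature; M, mature), as log2 of its CPM over its mean immature CPM; bars are medians. Mitosis genes in all 4 mature libraries lie below 0, least so in M1, while S phase and G1 genes spread to both sides.

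Ribonucleotide reductase makes the DNA precursors, and its small subunit is the one made anew in S phase. That subunit, Rrm2 (chr12:24708241-24714146), was at 36.6, 39.5 and 41.9 CPM in immature libraries and 12.5, 8.86, 6.60 and 6.16 CPM in mature ones. It had the deepest fall of the 16, 4.60-fold (log2 fold change -2.20 ± 0.23 SE, edgeR adjusted p = 7.9e-05). The large subunit Rrm1 was at 78.8, 78.5 and 75.8 CPM against 50.8, 44.4, 40.2 and 45.5 CPM. Its groups did not overlap either, but its log2 fold change of -0.78 ± 0.092 SE stayed short of the fold criterion (edgeR adjusted p = 1.6e-04).

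Genes that load and fire replication origins fell in part. Cdt1, the licensing factor (chr8:122568015-122573128), was at 25.8, 28.3 and 26.2 CPM in immature libraries and 13.4, 9.42, 11.8 and 10.7 CPM in mature ones. The separation was complete and 2.36-fold (edgeR adjusted p = 7.47e-05). Cdc45, which activates the helicase, was at 16.4, 17.7 and 15.2 CPM against 5.76, 3.52, 5.07 and 5.13 CPM, 3.38 times lower (edgeR adjusted p = 5.54e-05). It shares its span with Ufd1 on the opposite strand, and the strand setting of the counting was not given in the sources used here. Cdc6, the partner of Cdt1, fell with a log2 fold change of -1.56, and the checkpoint kinase Chek1 with -1.26.

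The Mcm2 to Mcm7 proteins form a single ring, the replicative helicase, and their transcripts did not move as a unit. Mcm5 (chr8:75109569-75128439) was at 43.9, 45.3 and 41.4 CPM in immature libraries and 23.1, 18.1, 19.8 and 20.9 CPM in mature ones. It was the only subunit to pass the criteria (log2 fold change -1.09 ± 0.10 SE, edgeR adjusted p = 4.03e-05). Mcm2 was at 31.5, 40.0 and 37.2 CPM against 25.3, 17.1, 15.3 and 17.6 CPM. Its mature replicate 1 was closest to the immature libraries, and the log2 fold change of -0.95 ± 0.18 SE (edgeR adjusted p = 0.00237) reached -1.12 without that library and so passed. Mcm4 (-0.70), Mcm7 (-0.39) and Mcm3 (-0.32) were lower by smaller amounts. Mcm6, whose printed sequence carries 3 E2F matches, went the other way. It was at 69.8, 68.9 and 60.1 CPM in immature and 95.3, 98.1, 86.3 and 94.2 CPM in mature libraries, above in every library but short of the fold criterion (log2 fold change 0.50 ± 0.087 SE, edgeR adjusted p = 0.00167). Mcm6 and Tk1 were chosen for values in every library after those values had been seen.

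Pcna, the sliding clamp of the replication fork, was the S phase gene with the highest level per length, at 59.4 ± 2.45 FPKM in immature and 30.6 ± 2.1 FPKM in mature cells (SD, n = 3 and 4). In CPM it was at 153, 163 and 171 in immature libraries and 76.5, 69.8, 91.0 and 74.4 in mature ones. It fell 2.08-fold without overlap (edgeR adjusted p = 4.69e-05). Both enzymes that make thymidylate were higher in mature cells. Tyms, thymidylate synthase, was at 17.3, 16.6 and 18.8 CPM against 21.9, 21, 24.2 and 25.1 CPM (log2 fold change 0.39 ± 0.10 SE, edgeR adjusted p = 0.0131). Tk1, thymidine kinase of S phase, was at 21.2, 21.5 and 22.4 CPM against 48.3, 41.8, 36.1 and 37.8 CPM (log2 fold change 0.92 ± 0.12 SE, edgeR adjusted p = 2.54e-04). Neither met the fold criterion, and Tk1 overlaps Afmid on the opposite strand. Gins2, a helicase cofactor, ranged from 16.3 to 41.8 CPM among mature libraries, spanning all immature values (edgeR adjusted p = 0.302).

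Of the 10 genes of G1 control, Ccnd2 rose, Ccnd1 and E2f1 fell, and 7 met neither, with a median log2 fold change of 0.064. These 3 of 10 are near the 23.1% of all genes that passed, so the count itself sets the group apart in neither direction. By adjusted p alone, 4 were higher and 4 lower, where 46.1% of all genes had such a p. The 3 D-type cyclins, which carry growth signals to Cdk4 and Cdk6, behaved differently from one another. Ccnd2 (chr6:127125162-127152193) was at 89.9, 85.5 and 87.2 CPM in immature libraries and at 266, 322, 193 and 332 CPM in mature ones. It rose 3.18-fold with no overlap (log2 fold change 1.67 ± 0.18 SE, edgeR adjusted p = 9.71e-05). Ccnd1 was at 15.9, 20 and 19.8 CPM against 9.44, 11.5, 6.54 and 6.51 CPM. It fell 2.18-fold (log2 fold change -1.12 ± 0.22 SE, edgeR adjusted p = 0.00282), a call that was lost at -0.99 without mature replicate 3. Ccnd3 was at 75.7, 85.0 and 83.2 CPM against 72.9, 76.3, 84.8 and 76.9 CPM. Its groups overlapped and its log2 fold change was -0.065 ± 0.084 SE (edgeR adjusted p = 0.564).

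**Figure D4:**
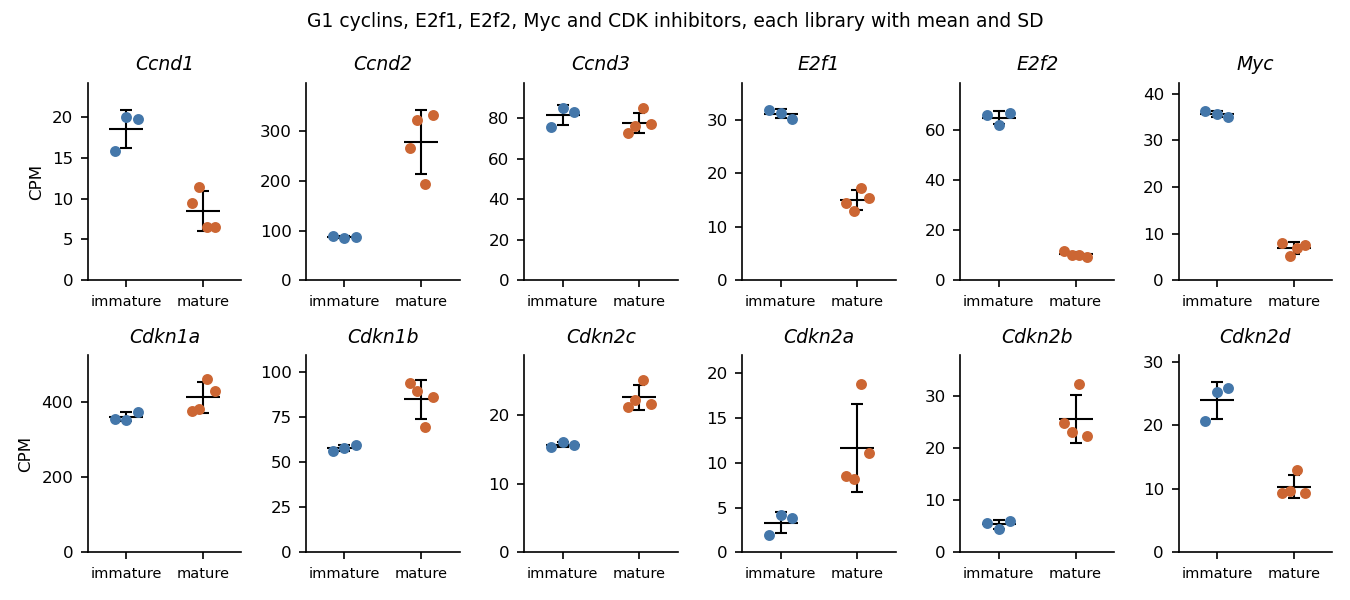
CPM of 12 genes of G1 control in each immature (n = 3) and mature (n = 4) library, with the mean and SD; each axis starts at 0 and has its own scale. Ccnd1, E2f1, E2f2, Myc and Cdkn2d lie lower in mature libraries, Ccnd2, Cdkn2a and Cdkn2b higher, and Ccnd3 overlaps.

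E2f1, the activator of S phase genes (chr2:154559407-154569892), was at 31.9, 31.2 and 30.2 CPM in immature libraries and 14.5, 12.9, 17.2 and 15.4 CPM in mature ones. The separation was clear, and the log2 fold change of -1.05 ± 0.11 SE (edgeR adjusted p = 8.01e-05) became -0.98 without mature replicate 2, short of the fold criterion. Ccne1, cyclin E1, which pushes cells into S phase with Cdk2, was at 23.5, 23.6 and 22.6 CPM against 13.4, 11.4, 16.3 and 16.5 CPM (log2 fold change -0.69 ± 0.14 SE, edgeR adjusted p = 0.00368). Ccne2 was at a log2 fold change of -0.85 and their kinase Cdk2 at 0.33, neither past the fold criterion.

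None of the 3 CDK inhibitors among the 54 passed the criteria. Cdkn1a, p21, had the highest level per length of all 54 genes in both groups, at 89.4 ± 0.786 FPKM in immature and 110 ± 6.60 FPKM in mature cells (SD, n = 3 and 4). In CPM it was at 356, 353 and 375 in immature libraries and 377, 382, 463 and 431 in mature ones. The groups barely missed each other, and the log2 fold change of 0.19 ± 0.094 SE had an edgeR adjusted p = 0.126. Cdkn1b, p27, was at 56.2, 57.7 and 59.3 CPM against 93.8, 89.6, 69.4 and 86.3 CPM. Every mature library lay above every immature one, and the fitted difference was 1.47-fold, short of the fold criterion (edgeR adjusted p = 0.00331). Cdkn2c, p18, an inhibitor of Cdk4 and Cdk6, was at 15.3, 16.1 and 15.6 CPM against 21.2, 22.2, 25.1 and 21.6 CPM, 1.44 times higher (edgeR adjusted p = 0.00219).

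Mature libraries differed among themselves in these genes. In mitosis genes mature replicate 1 was the highest mature library for 24 of 28, in S phase genes for 9 of 16, and in G1 genes for 2 of 10. Over all 1737 genes that fell, it was the highest in 22.7%. With mature replicate 1 as the only mature library, the median log2 fold change of the mitosis genes was -1.25, against 0.02 for all genes tested. Without mature replicate 1, 25 of 28 mitosis genes fell and their median was -1.99. Over all genes in that fit, 1746 of 17057 fell and the median was 0.045. With mature replicate 1 alone, the median was -0.55 for S phase genes and -0.023 for G1 genes. Tk1 was at 1.18 in that fit, above the fold criterion. Mcm5, Cdc6 and Cdt1 were short of the fold criterion there, at -0.89, -0.99 and -0.97, as were Aurka at -0.97 and Ccnd1 at -0.95.

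Further genes of each role were counted from lists of other symbols. Of 69 other mitosis genes, 46 fell and 0 rose, with a median log2 fold change of -1.21. By DESeq2 45 fell and 0 rose, and 0 were higher at an unadjusted p under 0.05 in edgeR. Those with the smallest p were Iqgap3, a cytokinesis scaffold (-2.40), the chromosome motor Kif4 (-2.11), Stmn1, which sequesters tubulin (-1.82), and the condensin subunit Ncapd2 (-1.10). Iqgap3 was at 33.1, 39.5 and 32.2 CPM in immature and 7.88, 6.24, 5.90 and 6.43 CPM in mature libraries, well apart (edgeR adjusted p = 1.84e-06). Of 46 other S phase genes, 11 fell and 1 rose, with a median of -0.53. Over all genes tested 23.1% passed, 9.95% lower and 13.2% higher. The 12 of 46 that passed are near that share, and it is their direction that differs. Those with the smallest p among the falls were Clspn, an adaptor of the replication checkpoint (-2.09), the histone chaperone Asf1b (-1.51) and the fork protein Wdhd1 (-1.13). Gins3, a partner of Gins2, was the one that rose, from 4.58, 4.12 and 5.86 CPM to 14.1, 14.1, 14.5 and 14.1 CPM (log2 fold change 1.55 ± 0.15 SE, edgeR adjusted p = 4.24e-05). In both lists mitosis genes were lower than S phase genes by their medians, as among the 54.

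Among 33 other genes of G1 control, 3 rose and 5 fell, again near the 23.1% of all genes, with a median log2 fold change of -0.46. E2f2, an activating E2F, had the deepest fall, from 65.9, 62.1 and 66.8 CPM to 11.6, 9.96, 10.2 and 9.26 CPM (log2 fold change -2.66 ± 0.10 SE, edgeR adjusted p = 4.07e-07). Myc, which drives growth and G1 cyclins, fell from 36.2, 35.7 and 35.1 CPM to 7.88, 5.11, 6.98 and 7.64 CPM (-2.37 ± 0.15 SE, edgeR adjusted p = 4.02e-06). E2f8, a repressive E2F, fell with a log2 fold change of -2.47. Cdkn2b, p15, an inhibitor of Cdk4 and Cdk6 (chr4:89306299-89311039), rose from 5.62, 4.44 and 6.09 CPM to 24.8, 23.1, 32.4 and 22.4 CPM (2.25 ± 0.18 SE, edgeR adjusted p = 1.4e-05). The neighbouring Cdkn2a, which encodes p16 and p19ARF (chr4:89274471-89294653), rose from 1.96, 4.13 and 3.83 CPM to 8.55, 8.22, 18.8 and 11.1 CPM (edgeR adjusted p = 0.00377). The inhibitor Cdkn2d went down from 20.6, 25.3 and 25.8 CPM to 9.32, 9.73, 13 and 9.36 CPM (edgeR adjusted p = 2.13e-04). Cdkn2a, Cdkn2d, E2f5 (1.35) and E2f7 (-1.49), which complete the 8, were named after their values had been seen.

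Among 22 targets of p53, the tumour suppressor that acts partly through p21, 4 rose and 1 fell, near the 23.1% of all genes that passed, with a median log2 fold change of 0.034. Those that rose were Perp (2.42), Eda2r (1.77), Pmaip1 (1.55) and Fas (1.45). The secreted factor Gdf15 fell (-2.14), and Sesn2, a stress-induced regulator of growth signalling, was at 0.68 with an edgeR adjusted p = 6.29e-05.

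Markers of other cells that the sort could hold were examined as well. All 8 of 8 macrophage markers fell, from a summed 1980 to 2070 CPM in immature to 346 to 396 CPM in mature libraries. Of 9 granulocyte-monocyte progenitor markers in the table, Kit, Cd34, Sox4 and Myb rose and Cebpe fell, while Mpo, Prtn3, Ms4a3 and Ctsg were under 1 CPM in every library. Their sum was 36.3 to 41.8 CPM in immature and 71.1 to 89.3 CPM in mature libraries. Of 9 neutrophil markers 0 rose and 2 fell, with 6 under 1 CPM everywhere, and all 5 lymphocyte markers were under 1 CPM in every library. Epithelial markers, which MC38 cells could bring, summed to 69.9 to 77.4 CPM in immature and 59.4 to 69.8 CPM in mature libraries. Most of that sum was Cdh1 alone, at 50.7 to 57.8 CPM in immature and 47.3 to 54.2 CPM in mature libraries. Of these markers Epcam rose, from 0.17 to 0.418 CPM in immature to 0.72 to 1.6 CPM in mature libraries. Fibroblast markers summed to 12.7 to 21.3 CPM and 23.5 to 31.5 CPM, with 2 of 5 higher, Dcn and Col1a2. Those calls rest on mature replicates 2 to 4, as for heart muscle, since Dcn was at 0.561 CPM in mature replicate 1 and 8.08 to 8.68 CPM in the others, and Col1a2 at 0.243 against 2.21 to 3.18 CPM. Erythroid markers, of which 3 of 5 rose, summed to 0.17 to 0.387 CPM in immature and 1.24 to 3.84 CPM in mature libraries, lowest in mature replicate 1. The part of these cells in the levels of the cell cycle genes was not tested.

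**Figure D5:**
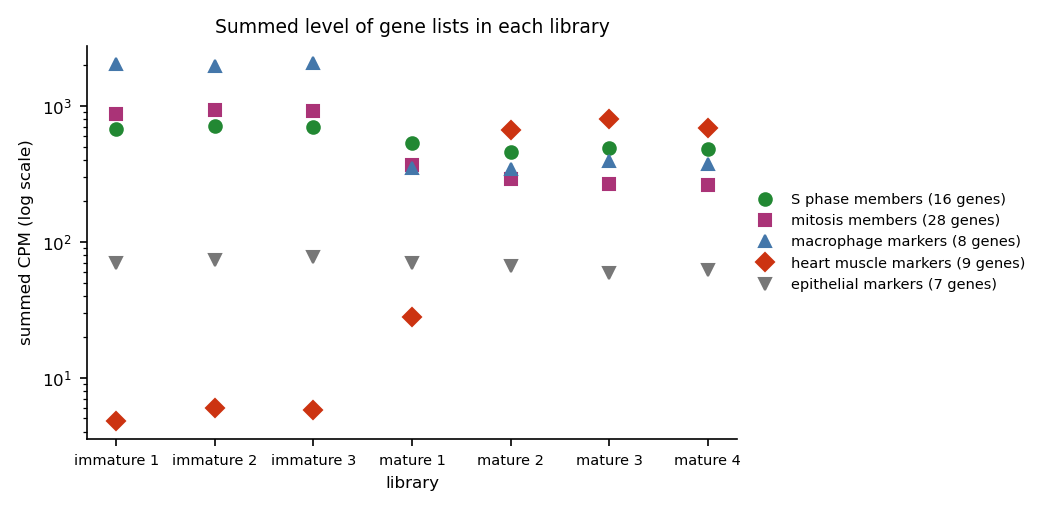
Summed CPM, on a log axis, of the S phase genes, the mitosis genes and 3 marker lists in each of the 7 libraries. Mitosis genes fall from 871 to 946 CPM in immature libraries to 264 to 367 CPM in mature ones, macrophage markers fall alongside, and heart muscle markers set mature 1 apart from mature 2 to 4.

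Overlapping genes bear on some of the values. Of the 54, 14 genes share their span with a gene on the opposite strand that had at least 10% as many counts: Mcm7, Tk1, Gins2, Cdc45, Ccna2, Cdc20, Cdc25b, Cdc25c, Cdca8, Kif20a, Nusap1, Ccnd1, Ccnd3 and Ccne2. Without a stated strand setting, reads of such pairs cannot be told apart.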

How the data were processed

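Poly(A) RNA of 3 immature and 4 mature BMDC libraries was sequenced from stranded libraries. The deposited table holds, for every gene and library, a whole-number count without normalization and an FPKM value scaled by gene length and library total and rounded to 2 decimals. The submitters' processing notes name cutadapt 1.9, HISAT2 2.2.1, StringTie 2.1.6, DESeq2 and edgeR, and the build mm9. The deposited coordinates nevertheless fit GRCm38, since 96.54% of the 28588 gene IDs shared with GENCODE M21 overlap the same gene there. The counting program and its strand setting were not given in the sources used here.

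The deposited counts were fitted with edgeR 4.0.16 in R 4.3.3 (filter on low counts, TMM normalization, quasi-likelihood test) over all 7 libraries and 17461 genes, with Benjamini-Hochberg adjustment over all of them. A gene rose or fell with a log2 fold change of at least 1 in size and an adjusted p under 0.05. CPM are counts scaled to the TMM-adjusted library total. FPKM were used for levels between genes and for limma 3.58.1 on log2(FPKM + 1) and log2(FPKM + 0.1). Other alternatives were DESeq2 1.42.0, its size factors within edgeR, no filter, an FPKM of at least 1 in 3 libraries, no fold criterion, each library left out, mature replicate 1 alone and the replicate number as a block. The labels do not say whether equal replicate numbers mark a shared culture, and the main fit was unpaired. The fits were tested on simulated counts. Tables and figures used Python 3.11.15, pandas 2.3.3, numpy 2.4.6 and matplotlib 3.10.9.

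Members and lists were chosen with earlier results of these data known. By rule, values in every library are given for the 6 genes of each group with the smallest p and for a fixed set of symbols, and the 4 genes with the smallest p are named from each further list, or all that passed where these were 5 or fewer. The sources used here do not say how reads copied from 1 molecule were counted, so depth need not equal the number of molecules read.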

Additional observations from a re-analysis of the deposited data

Results flagged for a closer look

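Each of 79 values was compared across the 4 mature libraries by the gap of the most distant library over the whole range, where chance alone sets about 1 in 20 apart, or 3.95 of 79. There were 3 such values. For Cdc6, mature replicate 1 was at 4.70 CPM against 2.53 to 2.90 CPM in the others, with a gap of 0.83 of the range. For Gins3, mature replicate 3 was at 14.5 CPM beside 14.1 CPM in each of the others, with a gap of 0.895 of a narrow range. For the summed level of the other mitosis genes, mature replicate 1 was at 785 CPM against 672 to 677 CPM, with a gap of 0.958 of the range.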

How the results depend on the processing

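Under DESeq2, its size factors in edgeR and no filter on low counts, each of the 54 genes kept its direction and call. The median log2 fold change of all genes tested was 0.18 under DESeq2 and 0.17 without a filter, against 0.055, and that of the mitosis genes -1.77 and -1.78. The limma fits changed the unit, the filter, the pseudocount and the test together, and the cause of their lower counts was not tested. Of the 54 genes, 51 had a value in the limma fits. With limma on log2(FPKM + 1), 1768 of 11758 genes tested passed, among them 2 S phase, 21 mitosis and 1 G1 genes. Of the further lists 13 mitosis genes passed, all lower, and 2 S phase genes, 1 lower and 1 higher. Neither S phase count exceeded the share over all genes. With log2(FPKM + 0.1) the counts were 4 S phase and 23 mitosis genes, 7 other S phase genes (6 lower, 1 higher) and 2561 of 11758 in all. Pcna (-0.93 and -0.96), Mcm5 (-0.86 and -0.97) and E2f1 (-0.82 and -0.94) lost their calls in both. Cdk1 (-0.90), Cenpe (-0.99), Cdc6 (-0.72), Cdt1 (-0.95) and Ccnd1 (-0.73) lost theirs with log2(FPKM + 1) only. Ccnd3 changed sign in both, at 0.037 and 0.041, and was called in neither. An FPKM of at least 1 in 3 libraries left 2665 genes past the criteria in a smaller table. Without the fold criterion 8053 genes passed, among them 15 S phase, 28 mitosis and 8 G1 genes, and 32 other S phase, 62 other mitosis, 23 other G1 and 15 p53 target genes. With mature replicate 1 as the only mature library, assumed to vary like the immature group, the median log2 fold change of the S phase genes was -0.55. That of all genes tested was 0.02.

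Leaving out each library in turn gave 3646 to 4052 genes, 7 to 8 S phase, 25 mitosis and 2 to 3 G1 genes, with 11 to 15 other S phase and 42 to 49 other mitosis genes. The changed calls were E2f1 and Ccnd1, lost, and Mcm2, gained without immature replicate 1 (-1.04) or mature replicate 1 (-1.12). Over all genes, same-numbered libraries did not deviate together (correlations 0.0285, -0.00114 and 0.0144, against -0.0484 to 0.036 for libraries of different numbers). Such correlations cannot exclude a shared culture or mouse, so whether the numbers pair libraries stays unknown. The replicate block gave 3616 genes, 7 S phase, 25 mitosis and 3 G1 genes, and all 54 calls stood. Each of the 54 genes had at least 32 counts in each library, and the effect of counting error on the calls was not tested.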
